A study of Mus musculus with 10 samples.

Results

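The genes described here, 8 genes of sugar handling in the liver, were read in a whole-liver RNA-seq table of 31218 genes: Slc2a2, Gckr, Gpi1, Pfkl, Pklr, Ldha, Khk and Mlxipl. They were chosen by name, to stand for glucose entry, glycolysis, lactate, fructose and the sugar-sensing factor ChREBP, and each has its own entry in the table. All 8 of the 31218 had enough counts to be tested.

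The livers came from 10 mice that ate a high-fat diet for 16 weeks, in a study of malic enzyme 1 (Me1) in fatty liver disease. The 5 HKO mice are described by the submitters as lacking Me1 in hepatocytes and carry the genotype label Me1 Alb/Alb. The 5 Flox mice, described as their wild-type littermates, carry the floxed genotype label Me1 flox/flox. Me1 makes NADPH, the reducing power for fatty acid synthesis, from malate in the cytosol. The labels name no Cre line beyond Alb, the usual short form for albumin, and give no sex, age, litter or batch. There was no group on another diet, so each difference is one between genotypes under high-fat feeding. Livers are numbered 1 to 5 within each group. No label ties a library to its own mouse beyond a separate title number, so p-values measure the spread between these libraries, part of which may be technical.

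Hepatocytes take up glucose through the transporter GLUT2 and trap it by phosphorylation, a step that a regulatory protein, the product of Gckr, restrains during fasting. Glycolysis then turns glucose phosphate into pyruvate, and lactate dehydrogenase interconverts pyruvate and lactate. Fructose enters below the main control point of glycolysis, through ketohexokinase. Sugar phosphates activate ChREBP, which pairs with the protein Mlx, binds carbohydrate response elements and raises transcription of the liver pyruvate kinase gene and of genes for fatty acid synthesis.

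Of the 8 genes, Pklr and Gpi1 were higher in HKO livers, Ldha was lower, and Slc2a2, Gckr, Pfkl, Khk and Mlxipl did not pass the test. The test was edgeR's quasi-likelihood test over all 18065 genes with enough counts, with Benjamini-Hochberg adjustment and a threshold of 0.05. The 3 calls stand against a background in which 11.3% of all tested genes were called, 4.86% higher and 6.4% lower in HKO. Pklr had the largest difference of the 8, at 2.18-fold higher. Levels are given as CPM, counts scaled to library size with TMM factors, when livers are compared, and as FPKM, which also divides by gene length, when genes are compared. These are bulk samples, in which fewer hepatocytes and less RNA per hepatocyte cannot be told apart.

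**Figure D1:**
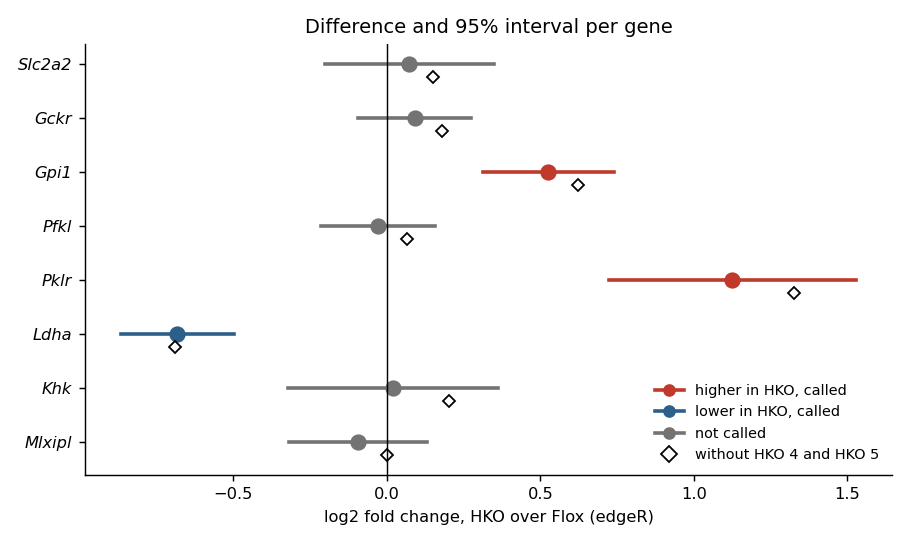
Log2 fold change of HKO over Flox (x axis) for the 8 genes, ordered by role. Circles and bars are the edgeR estimate and its 95% interval over 5 HKO and 5 Flox livers, red for higher in HKO, blue for lower and grey for not called, and open diamonds are the estimates without HKO 4 and HKO 5. Only the intervals of Gpi1, Pklr and Ldha leave out 0.

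Me1 itself matched the labels, at 20.5 to 26.9 CPM in HKO livers and 145 to 228 CPM in Flox livers (7.65-fold lower). The tissue matched its label too: the 11 hepatocyte marker genes in the table were expressed in every liver, with albumin at 20250 FPKM or more. Summed over these markers the level was 71980 to 88800 CPM in HKO livers and 105300 to 119000 CPM in Flox livers, and 6 of the 11 were lower in HKO. Total counts were 52790000 to 60765120 per liver. HKO 4 and HKO 5 stand apart from the other 8 livers. Their summed skeletal muscle markers reached 297 and 321 CPM, against at most 34.1 CPM in any other liver, and their summed epidermis markers reached 324 and 351 CPM, against at most 9.99 CPM. No gene of either list was at 0 in all livers. Macrophage markers summed to 428.5 to 566 CPM in HKO livers and 267 to 554.5 CPM in Flox livers, with 6 of 12 higher in HKO. Stellate cell and fibroblast markers summed to 370.4 to 637 CPM in HKO livers and 188 to 404 CPM in Flox livers, with 5 of 10 higher in HKO. Cholangiocyte markers summed to 78.9 to 122.5 CPM in HKO livers and 48.1 to 71.1 CPM in Flox livers, without overlap and with 3 of 6 higher in HKO. The gene Spp1 is in both the macrophage and the cholangiocyte list, so these lists are not independent. Sinusoidal endothelial markers, at 373 to 463 CPM in HKO livers and 279.5 to 425 CPM in Flox livers, had 2 of 8 higher in HKO. Of the neutrophil markers 0 of 5 passed, with 1 at an unadjusted p under 0.05, and 1 of 7 T and NK cell markers and 1 of 5 red cell markers were lower in HKO. Without HKO 4 and HKO 5, 4 of 12 macrophage, 2 of 10 stellate cell and fibroblast, 1 of 6 cholangiocyte and 1 of 8 endothelial markers were called higher. In that fit, which called 5.36% of all tested genes, 6 of 11 hepatocyte markers were lower. The part of these cell types in the results was not tested, and results are also given without HKO 4 and HKO 5.

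**Figure D2:**
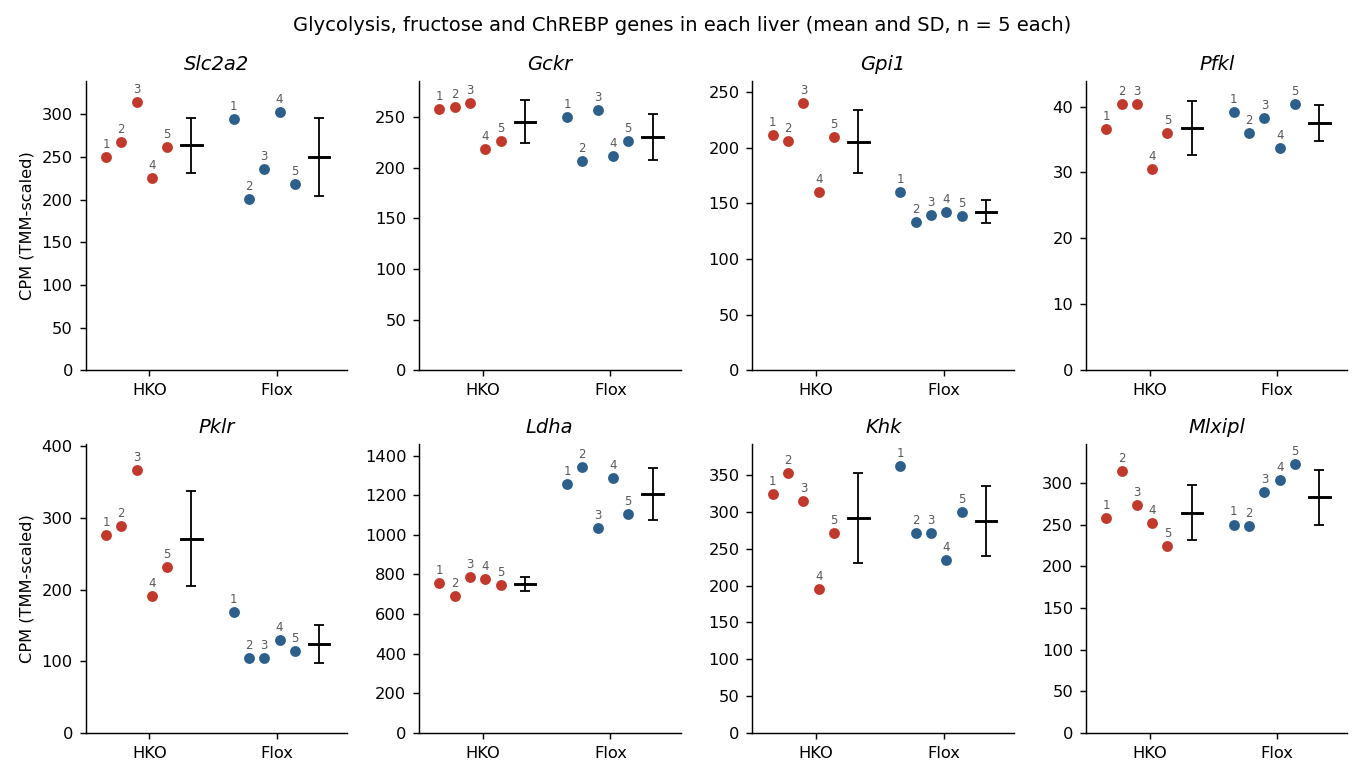
Level of each of the 8 genes in every liver (y axis, TMM-scaled CPM, from 0), HKO in red left of Flox in blue, with the liver's number above its point and the mean and SD beside each group (n = 5 each). The groups do not overlap for Gpi1, Pklr and Ldha, and they overlap for the other 5 genes. Of all tested genes 10.9% had groups without overlap, 4.41% with HKO above Flox and 6.48% with HKO below.

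The promoters of the 3 called genes are shown because ChREBP acts through E-box sequences near gene starts, and Pklr has the best-studied carbohydrate response element of the liver. The windows are the 250 bases before a RefSeq start site in GRCm38.p6, written 5′ to 3′ on the strand of the gene. Capitals mark matches to either of the motifs searched on both strands: CACGTG, the full E-box, and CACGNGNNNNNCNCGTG, a pair of E-box-like units on either side of a fixed gap. RefSeq gives Pklr an upstream and a downstream start, and as background the upstream promoter is known from red cells and the downstream one from liver. Ldha has 2 RefSeq starts, of which the first is printed.
Pklr, downstream start (chr3:89136373-89136622, plus strand): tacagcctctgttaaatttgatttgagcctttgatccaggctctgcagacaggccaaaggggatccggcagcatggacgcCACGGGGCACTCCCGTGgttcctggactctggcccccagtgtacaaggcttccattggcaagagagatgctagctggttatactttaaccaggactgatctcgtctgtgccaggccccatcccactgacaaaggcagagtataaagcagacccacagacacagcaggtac
Gpi1 (chr7:34230337-34230586, minus strand): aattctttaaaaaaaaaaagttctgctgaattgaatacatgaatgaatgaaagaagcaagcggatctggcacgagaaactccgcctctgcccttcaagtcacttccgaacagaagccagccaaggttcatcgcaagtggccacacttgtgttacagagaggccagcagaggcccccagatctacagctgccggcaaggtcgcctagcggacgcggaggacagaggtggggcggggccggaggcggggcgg
Ldha, first start (chr7:46845554-46845803, plus strand): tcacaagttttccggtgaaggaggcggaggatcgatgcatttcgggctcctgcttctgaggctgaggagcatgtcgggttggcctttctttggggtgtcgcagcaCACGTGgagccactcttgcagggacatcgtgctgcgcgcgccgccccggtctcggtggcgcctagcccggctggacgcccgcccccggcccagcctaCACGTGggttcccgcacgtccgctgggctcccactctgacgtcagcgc
The downstream Pklr window held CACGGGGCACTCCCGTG, from 170 to 154 bases before the start. The first Ldha window held CACGTG at 145 to 140 bases and again at 48 to 43 bases before the start. The Gpi1 window held neither motif. A paired match can contain CACGTG, and the one in the Pklr window did not. The paired units occurred in 13 of 32851 RefSeq promoter windows of this length (0.0396%) and CACGTG in 1978 (6.02%). The Pklr element was known before the search, so the paired match in its window was not a test, and the share describes the rarity of the motif only. All 8 genes had a window, 11 windows in total, and 4 of these held a match, since the single Khk window and the first of the Mlxipl windows each held CACGTG, at 71 to 66 and 98 to 93 bases before the start. These matches describe the letters of the windows, and binding was not measured.

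Slc2a2 encodes GLUT2, the bidirectional glucose transporter of hepatocytes. Its levels were 250.3, 267, 314, 225 and 262 CPM in HKO 1 to HKO 5, against 295, 201, 236, 302 and 218 CPM in Flox 1 to Flox 5. The ranges overlapped over most of their width, with HKO 3 as the single liver above all Flox livers. The log2 fold change was 0.07 with a 95% interval of -0.20 to 0.35 (adjusted p = 0.760 by edgeR). In linear terms the interval ran from 0.869-fold to 1.27-fold of the Flox level.

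Gckr encodes the regulatory protein that restrains glucose phosphorylation in hepatocytes. Its levels were 258, 260.3, 264, 219 and 227 CPM in HKO 1 to HKO 5, against 250.5, 206, 257, 212 and 227 CPM in Flox 1 to Flox 5. HKO 1 to HKO 3 sat just above the highest Flox liver, while HKO 4 and HKO 5 lay inside the Flox range. The log2 fold change was 0.09 (95% interval -0.09 to 0.28, adjusted p = 0.531 by edgeR). Gckr was called on the deposited FPKM scale, with a log2 fold change of 0.31 by limma on log2(FPKM + 0.5) and an adjusted p of 0.0116. It was also called after quantile normalization, at 0.32 (limma adjusted p = 0.0131). FPKM carries no TMM factor, and on that scale the median log2 fold change of all tested genes was 0.16, against 0.02 in the CPM-based fit. The share of calls that were higher in HKO was 88.2% there and 50.1% after quantile normalization, against 43.2% in the CPM-based fit.

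Gpi1 encodes glucose phosphate isomerase, which turns glucose phosphate into fructose phosphate and works in both glycolysis and gluconeogenesis. It lies on chromosome 7 from 34201330 to 34230336 on the minus strand (ENSMUSG00000036427), in the coordinates of the deposited table. Its levels were 211, 206, 239.7, 160.3 and 209 CPM in HKO 1 to HKO 5, against 160.0, 133, 139, 142 and 139 CPM in Flox 1 to Flox 5. Every HKO liver exceeded the highest Flox liver, a pattern seen in 4.41% of tested genes, but HKO 4 barely exceeded Flox 1. The mean was 205 ± 28.6 CPM in HKO and 142.5 ± 10.3 CPM in Flox (SD, n = 5 each). Gpi1 was thus 1.44-fold higher in HKO, with a log2 fold change of 0.53 (SE 0.10, 95% interval 0.31 to 0.74, adjusted p = 0.00656 by edgeR). With HKO 4 and HKO 5 left out, the log2 fold change was 0.62 (adjusted p = 0.00347 by edgeR).

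Pfkl encodes the liver subunit of phosphofructokinase, which commits sugar to glycolysis. Its levels were 36.6, 40.5, 40.4, 30.5 and 36.0 CPM in HKO 1 to HKO 5, against 39.2, 36.0, 38.2, 33.7 and 40.4 CPM in Flox 1 to Flox 5. The groups overlapped almost fully, with HKO 4 lowest of the 10 livers. The log2 fold change was -0.03 (95% interval -0.21 to 0.16, adjusted p = 0.867 by edgeR), and its sign turned on the FPKM scale, to 0.17, and without HKO 4 and HKO 5, to 0.06.

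Pklr encodes the pyruvate kinase of liver and red cells, the last step of glycolysis and a classic ChREBP target. It lies on chromosome 3 from 89136142 to 89146594 on the plus strand (ENSMUSG00000041237). Its levels were 276.5, 289, 367, 192 and 231 CPM in HKO 1 to HKO 5, against 168.5, 104, 104, 129.7 and 115 CPM in Flox 1 to Flox 5. The groups did not overlap: HKO 3 was highest, and HKO 4, the lowest HKO liver, still exceeded Flox 1, the highest Flox liver. HKO lay above Flox without overlap in 4.41% of tested genes. The mean was 271 ± 66.1 CPM in HKO and 124 ± 26.8 CPM in Flox (SD, n = 5 each). The log2 fold change was 1.13 (SE 0.18, 95% interval 0.72 to 1.53, adjusted p = 0.00396 by edgeR). In the other 8 livers, without HKO 4 and HKO 5, it was 1.33 (adjusted p = 0.00357 by edgeR). Table entries are per gene, so transcripts from the upstream and the downstream start were not separated. Hcn3, a channel gene on the opposite strand, overlaps Pklr, and its count was at most 6.68% of the Pklr count in any liver. No source used here says if reads were assigned by strand.

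Ldha encodes the A subunit of lactate dehydrogenase. It lies on chromosome 7 from 46841475 to 46855627 on the plus strand (ENSMUSG00000063229). Its levels were 758, 692, 789.5, 775 and 745 CPM in HKO 1 to HKO 5, against 1258, 1345, 1035, 1288 and 1107 CPM in Flox 1 to Flox 5. The HKO livers were close together and all lay below the lowest Flox liver, a pattern seen in 6.48% of tested genes. The mean was 752 ± 37.4 CPM in HKO and 1207 ± 130.1 CPM in Flox (SD, n = 5 each). Ldha was 1.6-fold lower in HKO, with a log2 fold change of -0.68 (SE 0.08, 95% interval -0.87 to -0.50, adjusted p = 0.00080 by edgeR). Without HKO 4 and HKO 5 it was -0.69 (adjusted p = 0.00536 by edgeR). After quantile normalization the difference was -0.36 and missed the threshold (limma adjusted p = 0.0532). A processed copy, Ldha-ps2, had 67 to 180 counts per liver beside at least 38756 for Ldha, and how reads shared between the copies were assigned was not tested.

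Khk encodes ketohexokinase, the first enzyme of fructose breakdown. Its levels were 325, 353, 315, 196 and 272 CPM in HKO 1 to HKO 5, against 362, 272, 271, 235 and 301 CPM in Flox 1 to Flox 5. HKO 4 was the lowest of all livers and Flox 1 the highest. The log2 fold change was 0.02 with the widest interval of the 8 genes after Pklr, -0.32 to 0.36 (adjusted p = 0.950 by edgeR). With HKO 4 and HKO 5 left out, it was 0.20 (adjusted p = 0.403 by edgeR). The A and C forms of the enzyme, which differ by an alternative exon, are counted together in the table.

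Mlxipl encodes ChREBP. Its levels were 258.5, 315, 274, 252 and 224 CPM in HKO 1 to HKO 5, against 250.2, 248.5, 289, 304 and 323 CPM in Flox 1 to Flox 5. The ranges overlapped widely, and HKO 5 alone lay below all Flox livers. The log2 fold change was -0.10 (95% interval -0.32 to 0.13, adjusted p = 0.599 by edgeR), and its sign turned on the FPKM scale, to 0.12. Transcripts of the alpha and beta forms of ChREBP, which start at different promoters, are counted together. Activity of the protein depends on sugar phosphates and on its place in the cell, which RNA levels do not measure.

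Per gene length, Ldha was the most abundant of the 8 in both groups and Pfkl the least. In HKO livers the mean order in FPKM was Ldha 216.5, Khk 154, Pklr 79.4, Gckr 53.8, Mlxipl 45.4, Slc2a2 43.6, Gpi1 30.2 and Pfkl 5.23. In Flox livers it was Ldha 297, Khk 131, Gckr 43.4, Mlxipl 41.6, Slc2a2 35.4, Pklr 31.2, Gpi1 18.0 and Pfkl 4.58. Pklr thus stood directly below Khk in HKO, above the range of Gckr, and below Slc2a2 in Flox, where its range overlapped that of Slc2a2. In both groups the range of Mlxipl overlapped those of Gckr and Slc2a2.

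Of 7846 named genes with a mean of at least 10 CPM, those whose log2 CPM profile over the 10 livers lay nearest that of Pklr were Rnd2, F2r and Plekha1, with root mean square differences of 0.173, 0.209 and 0.212. Their log2 fold changes were 1.11, 0.90 and 0.87. Nearest Mlxipl were Larp4b, Dhx38 and Dhx8, at 0.0631, 0.0766 and 0.0803, with log2 fold changes of -0.04, -0.10 and -0.14. The profiles include the group difference, so fold changes near that of the member follow from the choice. The SD of log2 CPM over the 10 livers was 0.66 for Pklr and 0.17 for Mlxipl, so smaller differences for Mlxipl do not mean closer likeness.

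Glycolytic enzymes and transporters come in tissue forms, and 4 of the 8 genes were set against their paralogs as a share of the summed FPKM in each liver. Pklr and its paralog Pkm, the pyruvate kinase of muscle and of most other cells, stood at a Pklr share of 88.0%, 87.7%, 90.6%, 75.9% and 74.7% in HKO 1 to HKO 5, against 84.1%, 76.4%, 72.6%, 74.9% and 75.4% in Flox 1 to Flox 5. HKO 1 to HKO 3 exceeded every Flox liver, and HKO 4 and HKO 5 did not. The mean was 83.4 ± 7.48% in HKO and 76.7 ± 4.36% in Flox (SD, n = 5 each; exact two-sided permutation p = 0.103, adjusted p = 0.258 over 5 planned measures). The difference was 6.71 points with all livers and 12.1 points without HKO 4 and HKO 5, where the groups did not overlap (exact permutation, adjusted p = 0.0893). At 3 livers against 5 the smallest exact p is 0.0357, and 1 or 2 separated measures of 5 cannot bring the adjusted p under 0.05. Pkm itself was highest in HKO 4 and HKO 5, at 94.3 and 121 CPM, against at most 67.2 CPM in the other 8 livers, and these are the livers with muscle and epidermis transcripts.

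**Figure D3:**
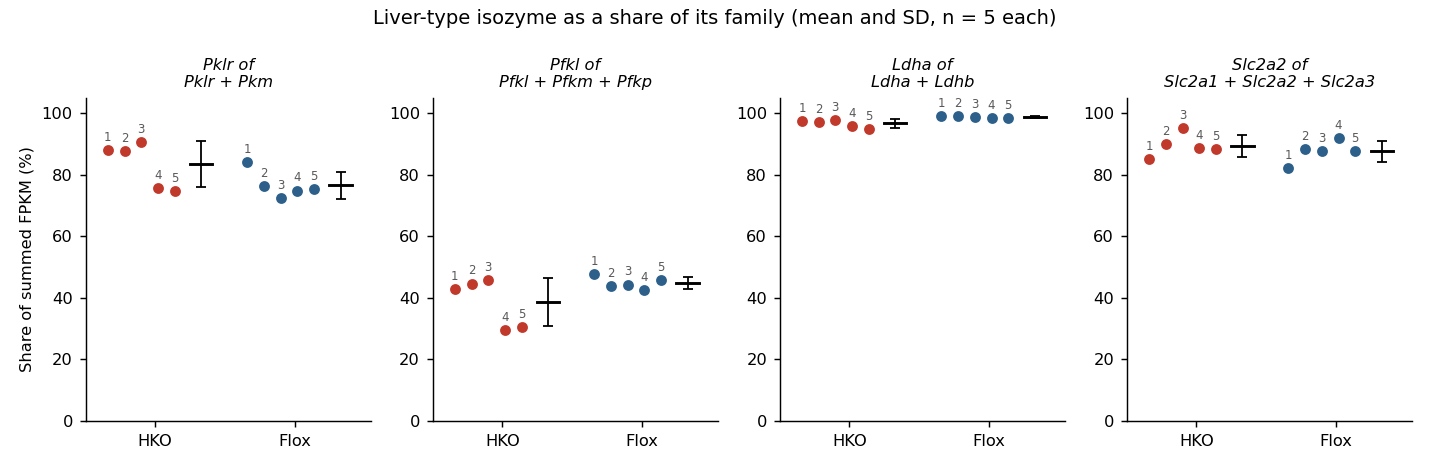
Share of Pklr, Pfkl, Ldha and Slc2a2 in the summed FPKM of each gene and its named paralogs (y axis, percent, from 0) in every liver, HKO left of Flox, with the mean and SD beside each group (n = 5 each). HKO 4 and HKO 5 lie lowest in the HKO group for Pklr, Pfkl and Ldha, and the groups are apart for Ldha alone.

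Ldha made up 97.6%, 97.3%, 97.9%, 95.8% and 94.8% of the sum of Ldha and Ldhb in HKO 1 to HKO 5, against 99.2%, 99.2%, 98.7%, 98.5% and 98.3% in Flox 1 to Flox 5. Every HKO share lay below every Flox share, by a mean of -2.07 percentage points (exact two-sided permutation p = 0.00794, the least that 5 livers against 5 allow, adjusted p = 0.0397). In the other 8 livers, without HKO 4 and HKO 5, the difference was -1.15 points and all 3 HKO shares still lay below every Flox share (exact permutation, adjusted p = 0.0893, the least that 2 separated measures of 5 can give at 3 livers against 5). Leaving out any single liver gave -2.38 to -1.60 points with an adjusted p of 0.0794, which is the least that a single separated measure of 5 can give at 4 livers against 5. Ldhb, the paralog that is high in heart, ran from 8.03 to 19.4 CPM in HKO livers and from 5.00 to 9.49 CPM in Flox livers and was not called (log2 fold change 0.80, adjusted p = 0.0996 by edgeR). Its 16.2 and 19.4 CPM in HKO 4 and HKO 5 were the highest of the 10.

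By FPKM, Pfkl was not the leading phosphofructokinase transcript: Pfkm, the muscle subunit, exceeded it in 5 of 5 HKO livers and 4 of 5 Flox livers. This order rests on the division by gene length. In CPM, Pfkm exceeded Pfkl in HKO 4 (32.9 against 30.5) and HKO 5 (38.0 against 36.0) only, the livers with muscle transcripts. In Flox livers Pfkl was at 33.7 to 40.4 CPM and Pfkm at 19.0 to 22.1 CPM. The Pfkl share was 38.7 ± 7.93% in HKO and 44.9 ± 2.04% in Flox (SD, n = 5 each; exact two-sided permutation p = 0.198, adjusted p = 0.331). HKO 4 and HKO 5 held shares of 29.7% and 30.5%, below all other livers, and without them the difference was -0.46 points. The Slc2a2 share, with Slc2a1 and Slc2a3 as paralogs, was 89.4 ± 3.65% in HKO and 87.6 ± 3.40% in Flox (exact two-sided permutation p = 0.444, adjusted p = 0.556).

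The other genes of these pathways were read as 7 lists, counted by direction without a test of the list. For comparison, the median log2 fold change of all tested genes was 0.02, and 11.3% of them were called, 4.86% higher and 6.4% lower in HKO. The lists are short and were not tested against those shares, so the counts below are not read as a result about any list. Among 22 other glycolytic enzymes 1 rose in HKO, 0 fell and 21 did not pass, with a median of 0.25 and 17 of 22 values above 0. Hk2, the insulin-responsive hexokinase of muscle and fat, was the one called, at 6.02 to 13.1 CPM in HKO livers and 3.27 to 4.97 CPM in Flox livers (2.17-fold higher, 1.12 ± 0.21 SE on the log2 scale, adjusted p = 0.00741 by edgeR). Its groups did not overlap, HKO 5 was highest, as it was for the summed muscle and epidermis markers, and without HKO 4 and HKO 5 the log2 fold change was 0.85 (adjusted p = 0.0344 by edgeR). The steps between Gpi1 and Pklr were not called, including Eno1, an enolase (log2 fold change 0.21, adjusted p = 0.242 by edgeR) and Pgam1, a phosphoglycerate mutase (0.23, adjusted p = 0.0951 by edgeR). Tpi1, another of these steps, went the other way (-0.17, adjusted p = 0.0608 by edgeR). Every HKO liver lay below every Flox liver for Tpi1, at 335 to 351 CPM against 360.5 to 397 CPM, and DESeq2 called it lower. In FPKM the Tpi1 ranges overlapped, at 110.6 to 127.4 in HKO and 104.7 to 121.7 in Flox. There the mean was higher in HKO, at 119.4 against 115.5. Without HKO 4 and HKO 5 Eno1 (0.34, adjusted p = 0.0387 by edgeR) and Pgam1 (0.32, adjusted p = 0.0317 by edgeR) passed beside Hk2, in a fit that called 5.36% of all tested genes, 2.45% higher and 2.91% lower in HKO. Gapdh has pseudogene entries with up to 1675 counts in the table, so its value is uncertain.

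**Figure D4:**
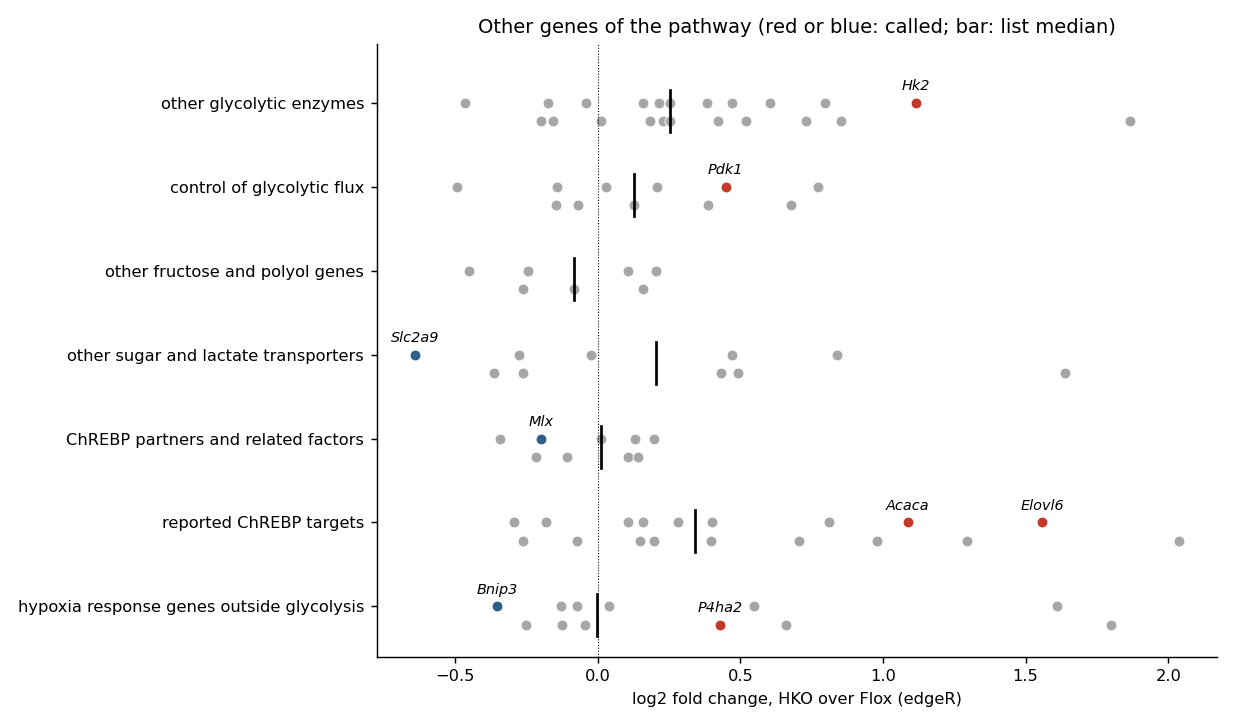
Log2 fold change of HKO over Flox (x axis, edgeR) for each tested gene of the 7 pathway lists (y axis), with called genes in red (higher) or blue (lower) and named, other genes in grey and a bar at each list's median. Each list holds 0 to 2 called genes, beside 11.3% called over all tested genes. The list medians run from -0.08 to 0.34.

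Of 11 genes that set glycolytic flux, Pdk1 rose, 0 fell and 10 did not pass (median 0.13). Pdk1, a kinase that switches off pyruvate dehydrogenase, was at 72.1 to 115 CPM in HKO livers and 65.1 to 85.8 CPM in Flox livers (log2 fold change 0.45, adjusted p = 0.0401 by edgeR). HKO 4 lay within the Flox range. The call held in 2 of the 10 fits that left out a liver, those without HKO 4 (0.55, adjusted p = 0.0071) and without Flox 1 (0.52, adjusted p = 0.0224), and over the others the adjusted p ran up to 0.0945. With HKO 4 and HKO 5 left out, it was 0.61 (adjusted p = 0.00658 by edgeR). Among 7 other fructose and polyol genes 0 were called by edgeR in either direction (median -0.08), with 2 at an unadjusted p under 0.05. DESeq2 called 1, Glyctk, the glycerate kinase at the end of fructose breakdown, which had an edgeR log2 fold change of -0.45 (adjusted p = 0.0787 by edgeR).

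Among 10 tested sugar and lactate transporters of 12, 0 rose, 1 fell and 9 did not pass (median 0.20). The 1 that fell was Slc2a9, a urate transporter of the glucose transporter family, at 19.0 to 28.7 CPM in HKO livers and 32.6 to 45.4 CPM in Flox livers (1.56-fold lower, -0.64 ± 0.12 SE on the log2 scale, adjusted p = 0.00628 by edgeR). In CPM no HKO liver reached the lowest Flox liver. In FPKM the ranges overlapped, at 3.44 to 5.70 in HKO and 5.11 to 7.15 in Flox. Of 12 genes of the hypoxia response outside glycolysis, a response that also raises Ldha, 1 rose, 1 fell and 10 did not pass (median -0.00). P4ha2, a collagen prolyl hydroxylase, was 0.43 higher on the log2 scale (adjusted p = 0.0348 by edgeR), and Bnip3, a mitochondrial autophagy gene, was at -0.35 (adjusted p = 0.0372 by edgeR). Neither passed without HKO 4 and HKO 5, at 0.49 (adjusted p = 0.0771) for P4ha2 and -0.22 (adjusted p = 0.160) for Bnip3, and in that fit Ddit4, which blunts growth signalling, was called at 2.07 (adjusted p = 0.0348 by edgeR). With 1 liver left out, P4ha2 kept its call in the fits without HKO 3, HKO 4 or Flox 1 and lost it in the other 7 (adjusted p up to 0.0818). Bnip3 kept its call without HKO 1 or HKO 2 and lost it in the other 8 fits (adjusted p up to 0.0896). It also lost the call by limma on log2(FPKM + 0.5), at -0.14 (adjusted p = 0.136), and after quantile normalization, at -0.19 (limma adjusted p = 0.0941). With gene length and GC trends removed, Bnip3 was at -0.24 (adjusted p = 0.0999 by edgeR). P4ha2 stayed called on the FPKM scale, but lost its call after quantile normalization, at 0.27 (limma adjusted p = 0.224).

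On the ChREBP side, 18 genes reported as ChREBP targets, other than the 8, held 2 that rose, 0 that fell and 16 that did not pass, with a median of 0.34. Elovl6, which lengthens fatty acids, was at 79.2, 134, 143, 53.2 and 104 CPM in HKO 1 to HKO 5, against 39.5, 31.4, 30.9, 40.6 and 32.2 CPM in Flox 1 to Flox 5. The groups did not overlap, and Elovl6 was 2.94-fold higher in HKO (1.56 ± 0.24 SE on the log2 scale, adjusted p = 0.00405 by edgeR). Acaca, which makes malonyl-CoA for fatty acid synthesis, was at 84.7, 145.5, 155, 61.8 and 98.5 CPM in HKO 1 to HKO 5, against 52.6, 41.7, 48.9, 66.5 and 47.1 CPM in Flox 1 to Flox 5. HKO 4 lay below Flox 4, and the other HKO livers exceeded every Flox liver (2.12-fold higher, 1.09 ± 0.24 SE on the log2 scale, adjusted p = 0.0192 by edgeR). In Pklr, Elovl6 and Acaca alike, HKO 3 was the highest and HKO 4 the lowest HKO liver. This order was not particular to these genes, since Gpi1, Gckr, Slc2a2, Eno1 and Pgam1 had the same highest and lowest HKO liver. Fasn, another of the 18, was highest in HKO 2. HKO 4 also carried muscle and epidermis transcripts.

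**Figure D5:**
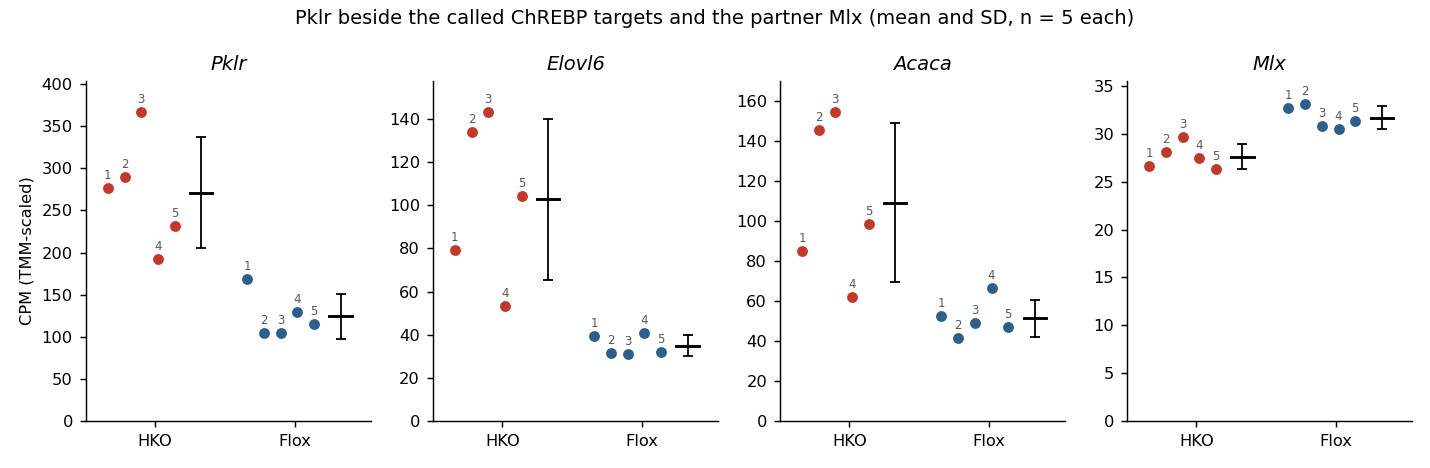
CPM in every liver (y axis, TMM-scaled, from 0) of Pklr, of the called ChREBP targets Elovl6 and Acaca and of the ChREBP partner Mlx, HKO left of Flox, with the mean and SD beside each group (n = 5 each). HKO 3 is the highest and HKO 4 the lowest HKO liver in the first 3 panels, and the groups overlap in the Acaca panel. Gpi1, Gckr and Slc2a2 had the same highest and lowest HKO liver.

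In the other 8 livers, without HKO 4 and HKO 5, Elovl6 was at 1.77 (adjusted p = 0.00275 by edgeR), Acaca at 1.32 (adjusted p = 0.00935 by edgeR) and Fasn, the fatty acid synthase, was also called at 0.91 (adjusted p = 0.0350 by edgeR). DESeq2 called 7 of the 18, all higher: Acaca, Acly, Elovl6, Fasn, Fgf21, Pnpla3 and Scd1. Over all genes to which it gave an adjusted p, DESeq2 called 18.4%, with 9.02% higher and 9.37% lower in HKO. Not all reported targets lay above 0, since Txnip, a ChREBP target that limits glucose uptake, had a log2 fold change of -0.29 (adjusted p = 0.703 by edgeR) and G6pc, which frees glucose from its phosphate, one of -0.26 (adjusted p = 0.587 by edgeR). Several of these genes, Acaca, Fasn, Scd1 and Elovl6 among them, are also targets of the lipogenic factor SREBP-1c. Its gene Srebf1 ran from 69.1 to 167 CPM in HKO livers and from 56.0 to 199 CPM in Flox livers (log2 fold change 0.14, adjusted p = 0.842 by edgeR).

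Among 9 ChREBP partners and related factors, 0 rose, 1 fell and 8 did not pass (median 0.01). Mlx, the obligate partner of ChREBP, was at 26.6, 28.1, 29.6, 27.5 and 26.4 CPM in HKO 1 to HKO 5, against 32.8, 33.2, 30.8, 30.5 and 31.4 CPM in Flox 1 to Flox 5. The groups did not overlap, but the difference was small, at a log2 fold change of -0.20 (SE 0.06, adjusted p = 0.0452 by edgeR). The call was kept in the fit without HKO 3 (-0.22, adjusted p = 0.0463) and lost when any of the other 9 livers was left out (adjusted p up to 0.122), and on the FPKM scale the sign turned, to 0.02. Mlxip, the ChREBP paralog that also pairs with Mlx, was not called (log2 fold change 0.11, adjusted p = 0.676 by edgeR).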

How the data were processed

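RNA was measured in 10 livers, 5 HKO and 5 Flox. Per the labels' protocols, polyadenylated RNA was made into strand-marked paired-end libraries of 150 bp reads. Tools listed in the submitters' processing notes, with no roles, are HISAT2 2.2.1, cutadapt 1.9, StringTie 2.1.6, edgeR and DESeq2. No genome build is named in those notes or the labels. The table deposited by the authors gives, per its file headers, FPKM and estimated counts for 31218 genes in each liver, and the estimated counts are whole numbers. The authors' deposited FPKM values carry no TMM factor. Total counts were 52790000 to 60765120 per liver.

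The counts were fitted with edgeR 4.0.16 (R 4.3.3): filterByExpr kept 18065 genes, TMM scaled the libraries (factors 0.998 to 1.16 in HKO and 0.896 to 0.965 in Flox), and the robust quasi-likelihood test compared HKO with Flox, two-sided, with Benjamini-Hochberg adjustment over all tested genes. Fold changes are HKO over Flox. DESeq2 1.42.0 and limma 3.58.1 (pseudocounts 0.5, 0.1 and 1 on FPKM) gave alternatives. Shares were compared by exact two-sided permutation over 252 assignments, adjusted over 5 planned measures, of which 1 is not reported here. The fit was checked on simulated counts with known changes.

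The 8 genes, the pathway and marker lists and the rule for named genes (the 8 genes, Me1, up to 6 called genes per list, the paralogs, and the 3 genes most alike Pklr and Mlxipl) were chosen with earlier results of these data known. Other genes named in the text were chosen after their values were seen. Promoter sequences come from RefSeq, build GRCm38.p6, and gene coordinates from the deposited table, of whose genes 27221 have the same start and end in GENCODE M21. Table entries with the same symbol as another were resolved by the higher count.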

Additional observations from a re-analysis of the deposited data

Results flagged for a closer look

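The following 3 values lay far from the other livers of their group, by the gap to the nearest liver as a share of the group's range. Such a gap arises by chance in about 1 in 20 groups, and 54 groups were examined. Me1 was at 26.9 CPM in HKO 5, against 20.5 to 22.2 CPM in the other HKO livers. Me1 was at 227.5 CPM in Flox 1, against 145 to 164 CPM in the other Flox livers. Slc2a1, the glucose transporter of most tissues, was at 37.6 CPM in Flox 1, against 15.0 to 19.7 CPM in the other Flox livers. No cause was tested for any of the 3.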

How the results depend on the processing

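The calls of Pklr and Gpi1 held their direction and their side of the threshold in all 19 alternatives run. Leaving out 1 liver at a time gave Pklr log2 fold changes of 0.99 to 1.26 and Gpi1 values of 0.46 to 0.61. Ldha held in 18 of the 19 and was at -0.36 after quantile normalization, where it missed the threshold. No cause was tested for any change listed here. Each of the 8 genes had at least 1605 counts in every liver.

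With limma on log2(FPKM + 0.5), log2(FPKM + 0.1) and log2(FPKM + 1), Gckr passed at 0.31, 0.31 and 0.31, and it passed at 0.32 after quantile normalization. In those 3 FPKM fits Mlxipl turned to 0.12, 0.12 and 0.12, Pfkl to 0.17, 0.19 and 0.16, and Mlx to 0.023, 0.024 and 0.022. Quantile normalization turned Mlxipl to 0.15. Without HKO 4 and HKO 5, Mlxipl was at 0.0005 and Pfkl at 0.065, and the difference in the Ldha share was -1.15 points, with the groups still apart. Leaving out 1 liver at a time, Khk ran from -0.057 to 0.14, Pfkl from -0.066 to 0.038, Slc2a1 from -0.45 to 0.038 (the last without Flox 1) and the Ldha share from -2.38 to -1.60 points.

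The tested genes held 878 calls up and 1156 down in HKO livers. DESeq2 called 1566 higher and 1626 lower, the 3 FPKM fits 3031, 3034 and 3017 higher and 405, 404 and 406 lower, and the fit without HKO 4 and HKO 5 called 454 higher and 539 lower. Leaving out 1 liver gave 498 to 1058 higher and 691 to 1162 lower. Those more than 1.5 times below were without HKO 5 (498 higher, 691 lower), Flox 2 (537 higher), Flox 4 (511 higher) and Flox 5 (540 higher). With gene length and GC trends removed, 36.3% of calls were higher, against 43.2%.

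For the list counts, DESeq2 called 4 other glycolytic enzymes (3 higher, 1 lower), 2 flux genes (1 higher, 1 lower) and 1 fructose gene (lower). It also called 3 transporters (2 higher, 1 lower), 7 ChREBP targets (all higher) and 4 hypoxia genes (3 higher, 1 lower). The 3 FPKM fits called 8, 9 and 7 glycolytic enzymes, and each called 3 flux genes, 1 fructose gene, 2 transporters, 3 ChREBP partners and 9 ChREBP targets. Over all 12892 genes tested on that scale, these fits called 3031, 3034 and 3017 higher and 405, 404 and 406 lower. The list counts on that scale therefore stand against a larger share of calls than in the CPM-based fit. Quantile normalization called 5 glycolytic enzymes, 2 flux genes, 2 fructose genes, 2 transporters, 0 partners, 5 ChREBP targets and 0 hypoxia genes. Over all 18065 genes it called 875 higher and 872 lower. With no filter on low counts there were 0 flux genes, 0 partners and 1 hypoxia gene. With length and GC trends removed there were 2 glycolytic enzymes, 1 fructose gene and 0 partners. Without HKO 4 and HKO 5 there were 3 glycolytic enzymes, 0 partners and 1 hypoxia gene. Leaving out 1 liver gave 1 to 3 glycolytic enzymes (3 without HKO 4), 0 to 2 flux genes, 0 to 1 fructose gene (1 without Flox 1), 1 to 2 transporters (2 without Flox 1), 0 to 1 partner, 2 to 4 ChREBP targets (4 without HKO 4 or Flox 2) and 0 to 2 hypoxia genes.

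No paired analysis was possible because the sample title numbers are not shared between the HKO and Flox groups.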

Other observations

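Hcn3, a pacemaker channel gene that overlaps Pklr on the opposite strand, was examined because its reads could mix with those of Pklr. It ran from 12.8 to 24.4 CPM in HKO livers and from 3.79 to 7.05 CPM in Flox livers, with no overlap (log2 fold change 1.61, SE 0.23, edgeR adjusted p = 0.00177). Its log2 fold change was larger than that of Pklr, at 1.13, and the difference between the genes was not tested.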
